A study of Mus musculus with 20 samples.

Results

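HuR, the RNA-binding protein encoded by Elavl1, was knocked down in the livers of WT mice, and the response of the whole mouse transcriptome was followed by total RNA sequencing. The data are 12 WT mouse livers out of 20 livers in the series, 6 with HuR knockdown and 6 with a control virus; the other 8 livers came from humanized mice. All WT livers in the mouse table were used. Of the 55335 genes that the table lists, the 15090 with a mean of at least 1 TPM (reads per gene length, scaled to a total of 1000000 per liver) over the 12 livers were tested. The threshold fell between Gm22061, at a mean of 1.00 TPM, and Gm50080, at 0.999 TPM. Of the tested genes, 4682 had no human gene of the same symbol in the table of the humanized livers.

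The mice were male C57BL/6 (B6) animals, bought at 8 weeks of age and acclimatized for 10 to 14 days. Each mouse received 2000000000 pfu of adenovirus intravenously, carrying either an shRNA against mouse HuR or the LacZ control, and livers were collected 7 days later, when the mice had fasted for 4 h. Both groups therefore carried an adenovirus, and each group carried only its own, so that the shRNA and the virus that delivered it cannot be told apart. The knockdown rests on 1 shRNA sequence in whole liver.

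HuR binds U-rich and AU-rich stretches, mostly in 3′ UTRs and introns, and is best known for protecting short-lived mRNAs from decay and for acting on splicing and translation. In the liver, transcripts of cytokines, cell cycle regulators and lipid transport proteins are among its known partners. It is widely expressed and shuttles between nucleus and cytoplasm, and its own mRNA is among those it binds.

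The number of reads counted on genes, recovered from the steps in which TPM values move, was 12962463 to 38031312 (median 32641617) with HuR knockdown and 1424346 to 44675243 (median 36874934) with LacZ. LacZ replicate 2 is the shallow library, since the other 5 control libraries had at least 33080833 reads, and 1368 of the tested genes had no read in it. HuR knockdown replicate 6 also stood apart. Small nucleolar RNAs summed to 42296 TPM there against 12809 to 16610 TPM in the other 5 knockdown livers, and miRNA genes to 5041 TPM against 16675 to 28280 TPM. These 2 livers had the lowest correlations with the mean of their own group (0.930 and 0.964, against at least 0.986 for the other 10), so results are given with all 12 livers, without LacZ replicate 2, and without both. Hepatocyte markers were at high levels in all livers, with Alb at a mean of 53282 TPM with HuR knockdown and 51217 TPM with LacZ.

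The targeted gene was lower in every knockdown liver. Elavl1 (ENSMUSG00000040028.10, chromosome 8 from 4285382 to 4325413 on the minus strand of GRCm38) was at 3.72 to 5.62 TPM (median 4.97) with HuR knockdown and at 8.58 to 10.7 TPM (median 9.49) with LacZ. The groups did not overlap. The lowest knockdown value was that of replicate 6, and LacZ replicate 2, at 9.33 TPM, lay within the other controls although only 57 reads stand behind it (1343 to 1584 in the other controls). Elavl1 thus fell to 51.7% of control, by 0.83 on the log2 scale (SE 0.09, limma adjusted p = 0.00105; exact permutation p = 0.00216, two-sided, the smallest that 6 against 6 livers allow). Without LacZ replicate 2 the log2 fold change was −0.84 (limma adjusted p = 0.00244), and without both outlying livers −0.77 (limma adjusted p = 0.00172). Exons of Ccl25 overlap the gene on the other strand.

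After Benjamini-Hochberg adjustment over all tested genes, 134 genes had an adjusted p under 0.05 in limma, 0.888% of those tested, and 56 of them rose (0.371%) and 78 fell (0.517%) with HuR knockdown. At an unadjusted p under 0.05, the rule of the study's methods, 2418 genes (16%) passed, 1371 higher (9.09%) and 1047 lower (6.94%). The changes were modest: the median log2 fold change was 0.39 among the raised and −0.56 among the lowered genes, 2 genes rose and 6 fell by more than 1 on the log2 scale, and the median over all tested genes was 0.03. In 122 of the 134 genes the 6 knockdown and 6 control livers did not overlap. Over all tested genes this held for 189 genes higher (1.25%) and 186 lower (1.23%) with knockdown.

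**Figure D1:**
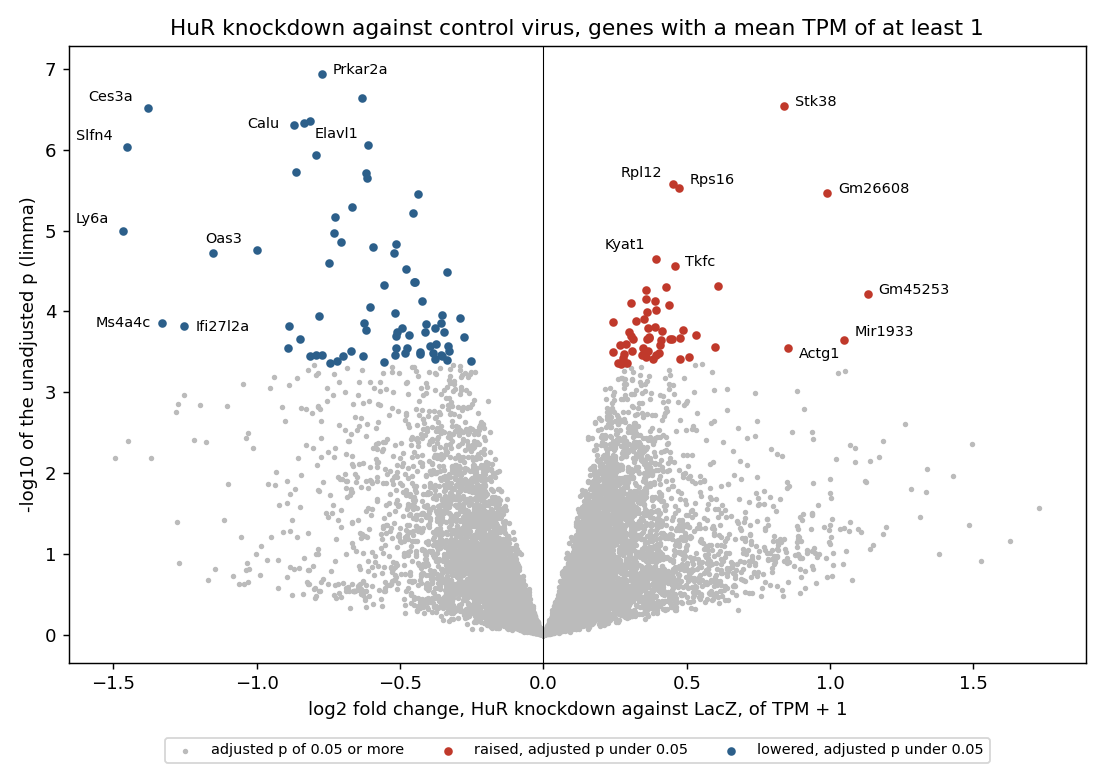
Log2 fold change of TPM + 1 with HuR knockdown against LacZ (x axis) and −log10 of the unadjusted limma p (y axis) for the 15090 genes tested, with the 56 raised genes in red and the 78 lowered genes in blue. The lowered genes reach further from 0 (Ly6a at −1.46) than the raised ones (Gm45253 at 1.13).

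More genes passed when the shallow library was left out. Without LacZ replicate 2, 189 genes (1.25%) passed the adjusted threshold, 82 raised (0.543%) and 107 lowered (0.709%), and 113 of the 134 were among them. Without knockdown replicate 6 alone the count was 372 (2.47%), 209 raised (1.39%) and 163 lowered (1.08%). Without both outlying livers 790 genes (5.24%) passed, 491 raised (3.25%) and 299 lowered (1.98%), and these held all 134. At the unadjusted threshold 18.1% of genes passed without LacZ replicate 2 (7.79% lower) and 23.2% without both (15.4% higher and 7.79% lower). Leaving out other single livers raised the count to 261 (without HuR knockdown replicate 3) or 149 (without LacZ replicate 5). It otherwise lowered the count, to as few as 30 (without HuR knockdown replicate 2). In each of the 12 fits that leave out 1 liver, 30 of the 134 genes passed. Dividing the livers by median-of-ratios factors gave 255 genes, of which 29.0% were raised, against 41.8% in the fit reported here.

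Lowered genes with the smallest p were of diverse function. Prkar2a (ENSMUSG00000032601.13), a regulatory subunit of protein kinase A, was at 22.6 to 31.0 TPM (median 27.7) with HuR knockdown and 43.3 to 51.1 TPM (median 46.7) with LacZ. It fell to 57.8% of control (log2 fold change −0.77, SE 0.07, limma adjusted p = 0.00105). Atp6ap1, an accessory subunit of the vacuolar proton ATPase, was at 26.1 to 30.1 TPM (median 29.0) against 40.1 to 50.9 TPM (median 45.2), a log2 fold change of −0.63 (limma adjusted p = 0.00105). Its knockdown livers lay closer together than its controls (SD 1.46 and 3.80 TPM). Of 20 tested genes for protein kinase A subunits and the vacuolar ATPase, these were the 2 that fell, 0 rose, and the median was −0.02.

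Suclg2, the GTP-forming subunit of succinyl-CoA ligase in the TCA cycle, was at 52.98 to 65.3 TPM (median 61.6) with HuR knockdown and 89.6 to 127 TPM (median 109) with LacZ, and fell by 0.81 on the log2 scale (limma adjusted p = 0.00105). Its groups were far apart, and the lowest liver was knockdown replicate 6. Gm15163, a processed pseudogene on chromosome X from 157016229 to 157017530, gave almost the same picture, at 40.0 to 53.7 TPM against 73.8 to 105 TPM (log2 fold change −0.86, limma adjusted p = 0.00244). Of the 50-base stretches of Gm15163, 57.8% also stand in Suclg2 transcripts, so reads of the pair are not independent. Among 29 genes of the TCA cycle and pyruvate entry, Suclg2 and Dlat (a pyruvate dehydrogenase subunit, log2 fold change −0.41) fell, and 0 rose. At the unadjusted threshold 10 of the 29 were higher and 4 lower, with a median of 0.13.

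Ces3a had the third largest fall. This carboxylesterase, which hydrolyses triglycerides and xenobiotic esters in rodent liver, was at 251 to 508 TPM (median 343) with HuR knockdown and 823 to 1039 TPM (median 909) with LacZ. It fell to 39.2% of control (log2 fold change −1.38, SE 0.14, limma adjusted p = 0.00105), and −1.37 without both outlying livers. Its neighbour Ces3b, with which it shares 25.6% of its 50-base stretches, was at 88.8 to 181 TPM against 151 to 236 TPM, with overlapping groups (log2 fold change −0.51, limma adjusted p = 0.169). Of the 12 carboxylesterases tested, 1 fell, 4 were lower at the unadjusted threshold (background 6.94%), and 0 were higher.

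Further lowered genes were Calu, C2cd2 and Slc30a1. Calu, which encodes the calcium-binding protein calumenin of the secretory pathway, was at 24.8 to 35.9 TPM (median 28.5) with HuR knockdown and 42.9 to 56.3 TPM (median 54.9) with LacZ. Its log2 fold change was −0.87 (limma adjusted p = 0.00105), and −0.93 without LacZ replicate 2, which held the lowest control value. C2cd2, a C2-domain protein gene, was at 25.8 to 34.1 TPM (median 28.3) against 41.9 to 49.2 TPM (median 43.0). It fell by 0.61 on the log2 scale (limma adjusted p = 0.00156), and Zbtb21 exons overlap it on the same strand. Slc30a1, a zinc exporter of the plasma membrane, was at 15.3 to 20.4 TPM (median 15.8) against 24.6 to 33.7 TPM (median 29.8), with a log2 fold change of −0.79 (limma adjusted p = 0.00173).

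**Figure D2:**
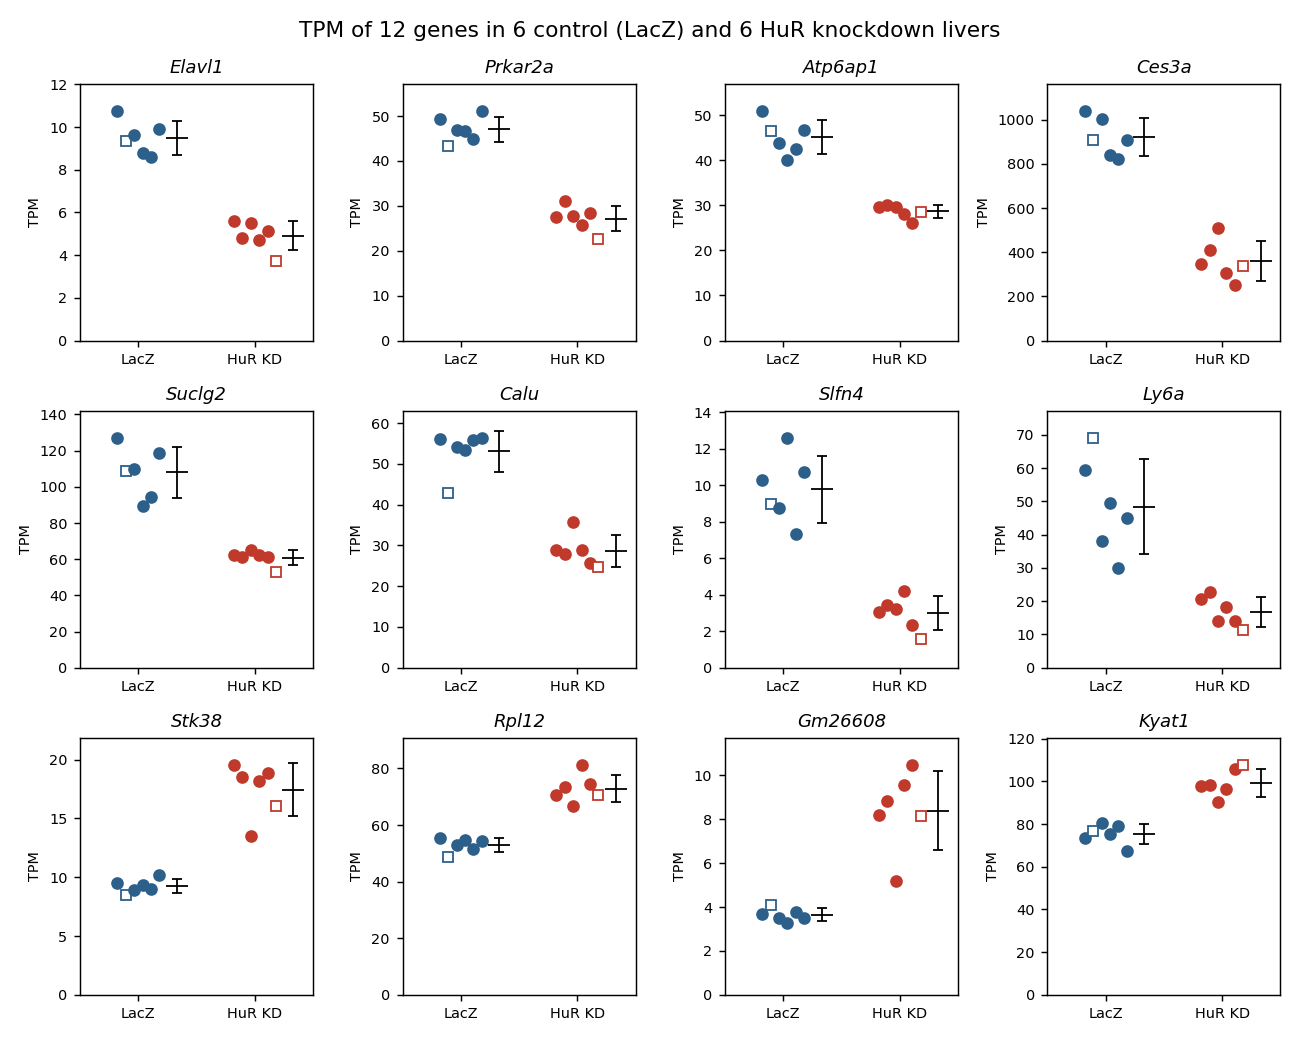
TPM (y axes, each starting at 0) of Elavl1 and 11 other genes in each of 6 LacZ (blue) and 6 HuR knockdown livers (red), with the mean and SD in black; open squares are LacZ replicate 2 and HuR knockdown replicate 6. The groups do not overlap in any of the 12 genes, and most of these genes were chosen by a rule that requires this. LacZ replicate 2 is the lowest control for Calu and the highest for Ly6a.

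Among raised genes, Stk38 had the smallest p. This gene encodes a kinase of the NDR family, relatives of the Hippo pathway kinases. It was at 13.5 to 19.5 TPM (median 18.3) with HuR knockdown and 8.51 to 10.2 TPM (median 9.18) with LacZ. The groups did not overlap, and knockdown replicate 3 was the lowest of its group. It rose to 189% of control (log2 fold change 0.84, SE 0.09, limma adjusted p = 0.00105), and without both outlying livers the value was again 0.84.

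Ribosomal protein mRNAs were next. Rpl12 was at 66.9 to 81.0 TPM (median 72.1) with HuR knockdown and 48.5 to 55.2 TPM (median 53.8) with LacZ (log2 fold change 0.45, limma adjusted p = 0.00283). Rps16 was at 115 to 148 TPM (median 128) against 89.6 to 94.4 TPM (median 93.5), a log2 fold change of 0.47 (limma adjusted p = 0.00297). Its control livers differed little, with an SD of 1.80 TPM against 11.4 TPM with knockdown. Of the 79 genes for cytosolic ribosomal proteins, 10 rose and 0 fell, and 45 were higher at the unadjusted threshold (57.0%, background 9.09%) with a median of 0.21. The other 8 that rose were Rpl36a, Rps21, Rpl7a, Rpl28, Rpl3, Rpsa, Rps6 and Rps14, with log2 fold changes of 0.28 to 0.40. Without both outlying livers 62 of the 79 passed the adjusted threshold, all higher. In 65 of them over 10% of the 50-base stretches also stand in another gene, such as Rps16-ps2 for Rps16, so their levels are uncertain.

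The list score, obtained by centring log2(TPM + 1) of each gene and averaging the members, shows which livers carry this. For cytosolic ribosomal proteins it was 0.07 to 0.30 in knockdown replicates 1 to 5 and −0.11 in replicate 6. The controls lay between −0.14 and −0.08. By score, replicate 6 was within the control range. By summed TPM, in which the abundant members weigh most, replicate 6 was at 13098 TPM, and all 6 knockdown livers (12653 to 14945 TPM) lay above all controls (10962 to 12202 TPM). Translation factors, which bring tRNA and mRNA to the ribosome, had a median of 0.17 with 19 of 35 higher and 1 lower at the unadjusted threshold, 0 past the adjusted one with 12 livers and 11 without both outlying livers. The smallest p among them was that of Pabpc1, the poly(A)-binding protein, at 42.0 to 72.4 TPM against 35.3 to 44.5 TPM (log2 fold change 0.49, limma adjusted p = 0.0545). Ribosome biogenesis factors had 13 of 38 higher and 0 lower at the unadjusted threshold (median 0.18), and mitochondrial ribosomal proteins 13 of 56 and 0 (median 0.10). Of these, Mrpl17 rose, from 15.7 ± 0.597 to 18.7 ± 0.776 TPM (SD, n = 6).

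Other raised genes served metabolism, folding and the cytoskeleton. Kyat1, a kynurenine aminotransferase, was at 90.4 to 107 TPM (median 97.9) with HuR knockdown and 67.2 to 80.6 TPM (median 76.0) with LacZ (log2 fold change 0.39, limma adjusted p = 0.0118). Tkfc, which phosphorylates glyceraldehyde in fructose metabolism, was at 92.2 to 123 TPM (median 104) against 70.3 to 81.1 TPM (median 76.2), and rose by 0.46 on the log2 scale (limma adjusted p = 0.0134). Exons of Cyb561a3 and Ddb1 overlap Tkfc on the other strand. Tkfc and Fads1, the delta-5 fatty acid desaturase (147 ± 10.3 to 193 ± 15.3 TPM, SD, n = 6), were the 2 of 25 genes of fatty acid and triglyceride synthesis that rose, and 0 fell.

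Cct5, a subunit of the chaperonin that folds actin and tubulin, rose from 125 ± 7.57 to 161 ± 10.3 TPM (SD, n = 6; limma adjusted p = 0.0212). Actg1, cytoplasmic gamma actin, had one of the largest folds, at 39.2 to 74.5 TPM against 23.6 to 40.5 TPM (log2 fold change 0.85, limma adjusted p = 0.0433). Its groups overlapped, and 37.4% of its 50-base stretches stand in other genes as well. Splicing factors had 2 of 48 raised, U2af2 (log2 fold change 0.30) and Sf3a1 (0.27), although Sf3a1 had an adjusted p of 0.0544 without LacZ replicate 2. Of 67 respiratory chain subunits, Ndufa5 rose (log2 fold change 0.27), 17 were higher at the unadjusted threshold and 0 lower, and the median was 0.11.

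Interferon-inducible genes of rodents had the lowest median of the lists with all 12 livers (without both outlying livers, major urinary proteins were lower, at −0.61 against −0.58). Slfn4, a Schlafen gene of myeloid cells that interferon induces, was at 1.56 to 4.21 TPM (median 3.16) with HuR knockdown and 7.34 to 12.6 TPM (median 9.62) with LacZ. It fell to 30.6% of control (log2 fold change −1.45, SE 0.16, limma adjusted p = 0.00156). Ly6a, the surface protein Sca-1, was at 11.2 to 22.7 TPM (median 16.0) against 29.9 to 68.9 TPM (median 47.2), a log2 fold change of −1.46 (limma adjusted p = 0.00717), with the highest control value in LacZ replicate 2 and a log2 fold change of −1.25 without both outlying livers. Oas3, which makes the 2-5A messenger of antiviral defence, was at 0.936 to 2.57 TPM (median 1.76) against 3.10 to 4.98 TPM (median 4.76), and fell by 1.00 on the log2 scale (limma adjusted p = 0.0101). Ms4a4c, a membrane protein gene of myeloid cells, and Ifi27l2a fell by 1.33 and 1.25 on the log2 scale.

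Of 48 tested GTPases and other interferon-inducible genes of rodents, 6 fell (Slfn4, Ifi27l2a, Ifi213, Ifi204, Trim30d and Trim30a) and 0 rose. At the unadjusted threshold 43 were lower (89.6%, background 6.94%), the median was −0.67, and without both outlying livers 12 passed the adjusted threshold with a median of −0.58. Of 37 interferon-stimulated genes that have human counterparts, Oas3 fell, 31 were lower at the unadjusted threshold and the median was −0.53. That count rests in part on the outlying livers: it was 22 without LacZ replicate 2 (background 7.79%), 26 without knockdown replicate 6 (background 6.49%) and 17 without both (background 7.79%). Irf7, a master regulator of the response, was at 26.6 to 44.6 TPM (median 36.0) against 45.3 to 83.0 TPM (median 62.8), with groups that did not overlap (log2 fold change −0.82, limma adjusted p = 0.0528). Class I MHC genes and their loading machinery had 11 of 24 lower at the unadjusted threshold (background 6.94%) with a median of −0.22, and H2-T24 fell (log2 fold change −0.67). Without both outlying livers 9 of the 24 were lower (background 7.79%), with a median of −0.18.

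The livers of each group differed widely in these genes. The score of the rodent list was −0.10 to −0.05 in knockdown replicates 1, 2 and 4 and −0.46, −0.58 and −0.86 in replicates 3, 5 and 6. Among the controls it was −0.09 in replicate 5 and 0.19 to 0.75 in the others. Replicates 1, 2 and 4 thus lay close to the lowest control and replicates 3, 5 and 6 well below it. By summed TPM of the rodent list, 5 of the 6 knockdown livers lay below all controls. For the list with human counterparts this held for 3 of the 6, and for the MHC list for 4. In the list with human counterparts, knockdown replicates 1, 2 and 4 scored −0.01 to 0.02, above LacZ replicate 5 (−0.08). In the MHC list the same 3 knockdown livers scored 0.02 to 0.10, above LacZ replicates 3 and 5 (−0.14 and −0.19).

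The promoters of 3 of the lowered interferon genes are shown, since they hold the letters GAAA, any 2 bases and GAAA again, the core of the interferon-stimulated response element. These letters appear in capitals, as TTTC, 2 bases and TTTC where they lie on the other strand. The windows run from 250 bases before to 50 bases after the start of the gene in RefSeq, build GRCm38.p6, 5′ to 3′.
Oas3 promoter, chr5:120777610-120777909, minus strand: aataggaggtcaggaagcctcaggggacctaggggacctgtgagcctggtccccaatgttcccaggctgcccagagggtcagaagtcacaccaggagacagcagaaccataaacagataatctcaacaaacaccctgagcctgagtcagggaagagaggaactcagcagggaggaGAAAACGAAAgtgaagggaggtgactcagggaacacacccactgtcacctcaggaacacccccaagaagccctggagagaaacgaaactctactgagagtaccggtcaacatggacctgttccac
Ifi213 promoter, chr1:173599223-173599522, minus strand: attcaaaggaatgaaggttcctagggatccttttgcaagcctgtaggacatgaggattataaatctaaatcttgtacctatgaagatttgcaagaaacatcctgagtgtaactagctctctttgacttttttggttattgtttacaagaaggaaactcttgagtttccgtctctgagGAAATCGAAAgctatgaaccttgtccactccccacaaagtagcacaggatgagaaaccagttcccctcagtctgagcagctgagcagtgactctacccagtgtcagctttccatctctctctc
Trim30d promoter, chr7:104507800-104508099, minus strand: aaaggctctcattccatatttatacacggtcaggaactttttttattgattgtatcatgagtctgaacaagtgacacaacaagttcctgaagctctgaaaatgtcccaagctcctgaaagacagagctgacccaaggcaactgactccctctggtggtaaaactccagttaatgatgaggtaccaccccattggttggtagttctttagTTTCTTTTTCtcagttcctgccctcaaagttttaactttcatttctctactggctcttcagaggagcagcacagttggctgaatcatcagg

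The motif lies 75, 73 and 41 bases before the start of Oas3, Ifi213 and Trim30d. Counting either strand, it was found in 1131 of 32851 promoters (3.44%) and, by gene, in 370 of 9499 tested genes with a promoter entry (3.90%). Of the rodent interferon-inducible list 29 of 37 genes with an entry held it (78.4%), and of the list with human counterparts 10 of 27 (37.0%). Among the genes that fell, 7 of 56 with an entry held it, and among those that rose 1 of 42. Not all are interferon genes: the windows of Suclg2 and of the lncRNA Gm36161, which both fell, also hold the letters. No entry was matched for Ly6a and Ifi27l2a, and the windows of Slfn4 and Ms4a4c do not hold these letters. A match describes the sequence and is not a measured binding site.

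Markers of other cell types were read beside the interferon genes. Over all tested genes 9.09% were higher and 6.94% lower at the unadjusted threshold, and 15.4% and 7.79% without both outlying livers. Of 10 tested Kupffer cell and macrophage markers, 6 were lower at the unadjusted threshold, 0 higher and 0 past the adjusted one, with a median of −0.40 (−0.28 without both outlying livers). Clec4f, which marks Kupffer cells, was at 18.5 to 39.9 TPM (median 27.9) with HuR knockdown and 38.4 to 59.7 TPM (median 50.2) with LacZ (log2 fold change −0.75, limma adjusted p = 0.0613). The summed level of the list was 482 to 819 TPM with knockdown and 684 to 939 TPM with LacZ, and knockdown replicate 6 had the lowest sum. Of the knockdown livers low in the interferon lists, replicate 3 had the highest Kupffer cell score of its group (0.25). Replicates 5 and 6 had the lowest (−0.42 and −0.65). T and NK cell markers had a median of −0.32, with 2 of 8 lower at the unadjusted threshold and sums of 14.5 to 28.1 against 20.7 to 38.4 TPM. Without both outlying livers their median was −0.19, with 3 of 8 lower. Cd3d, Cd3e, Cd3g, Klrb1c and Ncr1, the defining T and NK cell genes, were below the level tested. Of B cell and of neutrophil markers 3 each were tested and 0 passed the unadjusted threshold (medians 0.05 and −0.23). Stellate cell markers had 4 of 10 lower and 0 higher (median −0.09), sinusoidal endothelium markers 0 of 9 lower and 1 higher (median 0.00), and erythroid markers 0 of 5 lower and 1 higher (median 0.36). Without both outlying livers 3 of the 10 stellate cell markers were lower (median −0.07). Of the endothelium and erythroid markers 0 then passed the unadjusted threshold, with medians of −0.002 and 0.17. In none of these lists did a marker pass the adjusted threshold in limma. The part of these cells in the interferon result was not tested, and in whole liver fewer cells of a type and less RNA per cell cannot be told apart.

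Of 36 genes for chaperones of the endoplasmic reticulum and the unfolded protein response, 19 were lower at the unadjusted threshold (52.8%, background 6.94%). Of the rest, 0 were higher at that threshold, and the median of the list was −0.25. Without both outlying livers 15 were lower (background 7.79%), with a median of −0.20. By list score, knockdown replicates 1 and 2 (0.04 and 0.05) lay above LacZ replicates 4 and 5 (−0.06 and −0.07). Sec62, a subunit of the protein translocation channel, was at 38.8 to 62.9 TPM (median 54.5) with HuR knockdown and 63.6 to 81.5 TPM (median 76.8) with LacZ, and fell by 0.51 on the log2 scale (limma adjusted p = 0.0433). Herpud1, which helps to degrade misfolded proteins, was at 325 to 387 TPM (median 374) against 444 to 796 TPM (median 588), a log2 fold change of −0.70 (limma adjusted p = 0.0454). Without LacZ replicate 2 its adjusted p was 0.0589. Gadd45b, a stress-induced gene, fell to 51.6% of control (log2 fold change −0.85), with an adjusted p of 0.0516 without LacZ replicate 2.

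Cytochrome P450 and major urinary protein genes are families that are expanded in rodents. Of 35 tested CYP2 and CYP3 genes 10 were lower (28.6%, background 6.94%) and 0 higher at the unadjusted threshold (median −0.14). At the adjusted threshold 0 passed. The list score was −0.21 to 0.11 with HuR knockdown. It was −0.21 and −0.25 in LacZ replicates 4 and 5, and 0.17 to 0.33 in the other controls. Cyp2e1, an abundant hepatocyte enzyme, was at 7623 to 9185 TPM (median 8308) with HuR knockdown and 9332 to 11984 TPM (median 10732) with LacZ, without overlap of the groups (log2 fold change −0.36, limma adjusted p = 0.0830). The 21 tested major urinary protein genes, which encode pheromone carriers that male liver secretes, all had negative log2 fold changes (median −0.53). Only 4 of them passed the unadjusted threshold, 0 the adjusted one, and their sums overlapped widely (14985 to 32328 against 18465 to 34158 TPM). Members of this family share most of their sequence: every 50-base stretch of Mup19 stands in another gene.

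Further lists covered lipid, bile acid, nitrogen and glucose metabolism, read against a background of 9.09% higher and 6.94% lower. Fatty acid oxidation and ketogenesis had 3 of 33 genes higher and 3 lower at the unadjusted threshold (median 0.04), cholesterol synthesis and uptake 2 of 25 higher and 0 lower (median −0.05), and PPARα-induced genes 1 of 23 higher and 2 lower (median −0.07). The urea cycle and amino acid list had 5 of 30 higher and 0 lower (median 0.19, and 0.08 without both outlying livers), and the bile acid list 1 of 21 higher and 5 lower (median −0.16). In these 5 lists 0 genes passed the adjusted threshold in limma with all 12 livers. Without both outlying livers 5 of the 21 bile acid genes passed (1 higher, 4 lower), as did 3 of the urea cycle list (1 higher, 2 lower) and 1 lower gene in each of the other 3 lists. Over all tested genes 5.24% passed in that fit, 3.25% higher and 1.98% lower. The 1 gene in each of those 3 lists is near that share. Gluconeogenesis and glycolysis control had 6 of 23 genes higher and 3 lower at the unadjusted threshold (median 0.11), and 0 passed the adjusted one. Without both outlying livers 1 higher and 1 lower gene of that list passed it. G6pc, the glucose-6-phosphatase that releases glucose, was at 246 to 740.2 TPM (median 600.4) with HuR knockdown and 242 to 372 TPM (median 295) with LacZ, with overlapping groups (log2 fold change 0.79, limma adjusted p = 0.120, and 0.00918 without both outlying livers).

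**Figure D3:**
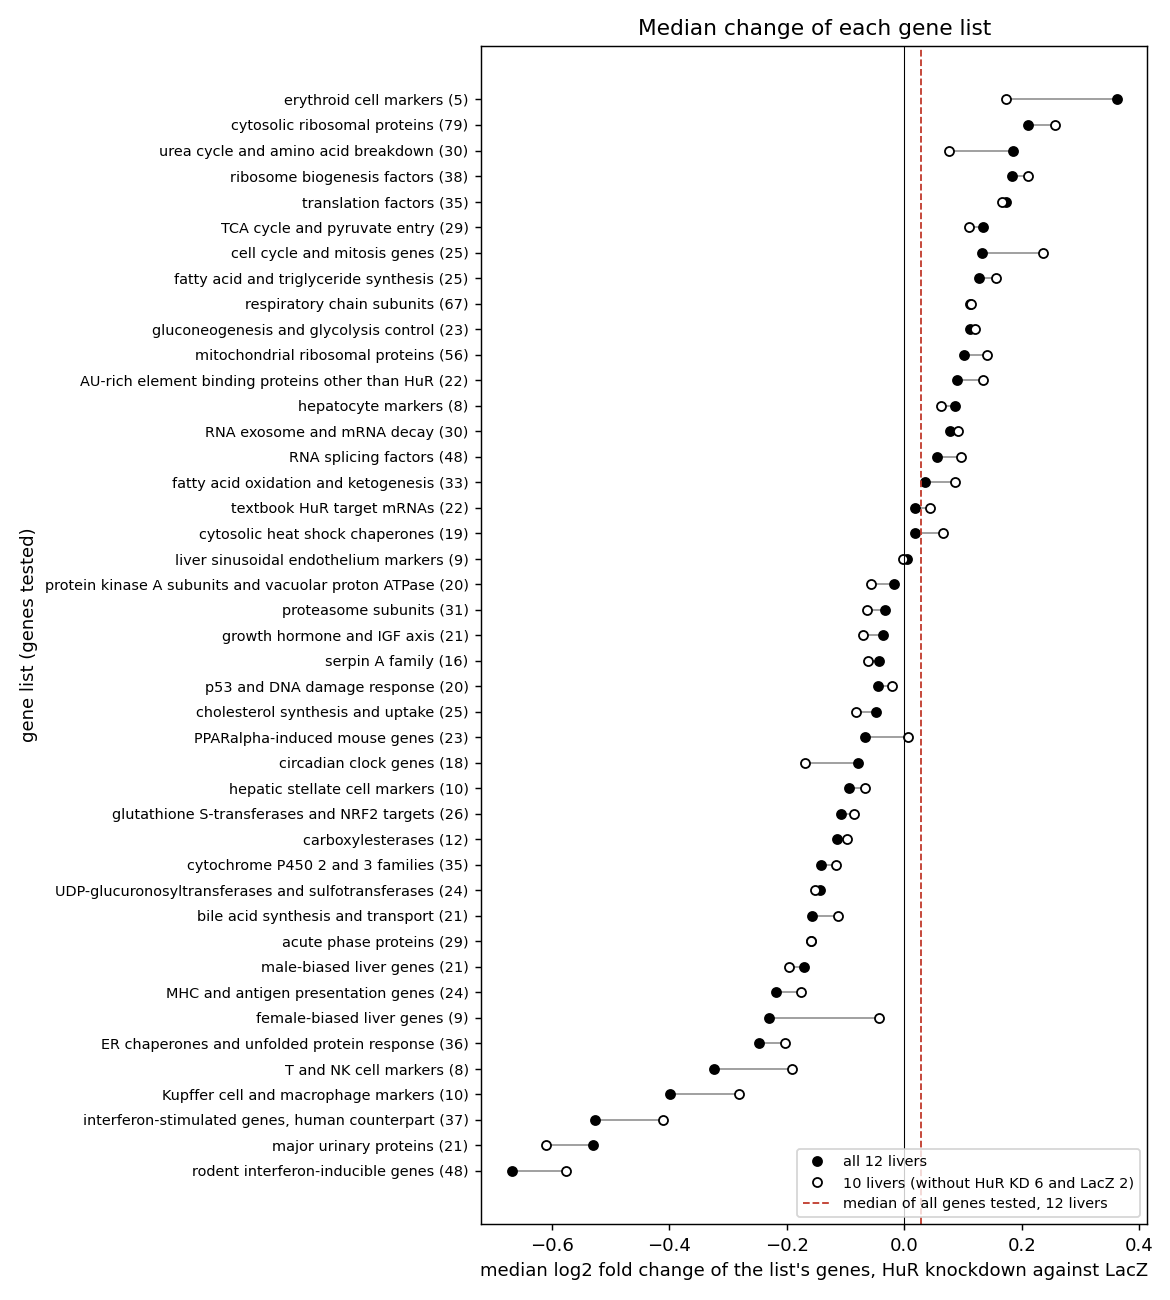
Median log2 fold change (x axis) of the gene lists with at least 5 tested genes (y axis, number tested in brackets), with all 12 livers (filled) and without HuR knockdown replicate 6 and LacZ replicate 2 (open); the red line is the median of all tested genes, 0.03. With all livers the rodent interferon list is lowest at −0.67 (−0.58 without the 2 livers, where major urinary proteins are lower at −0.61), and cytosolic ribosomal proteins lie at 0.21 (0.26).

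**Figure D4:**
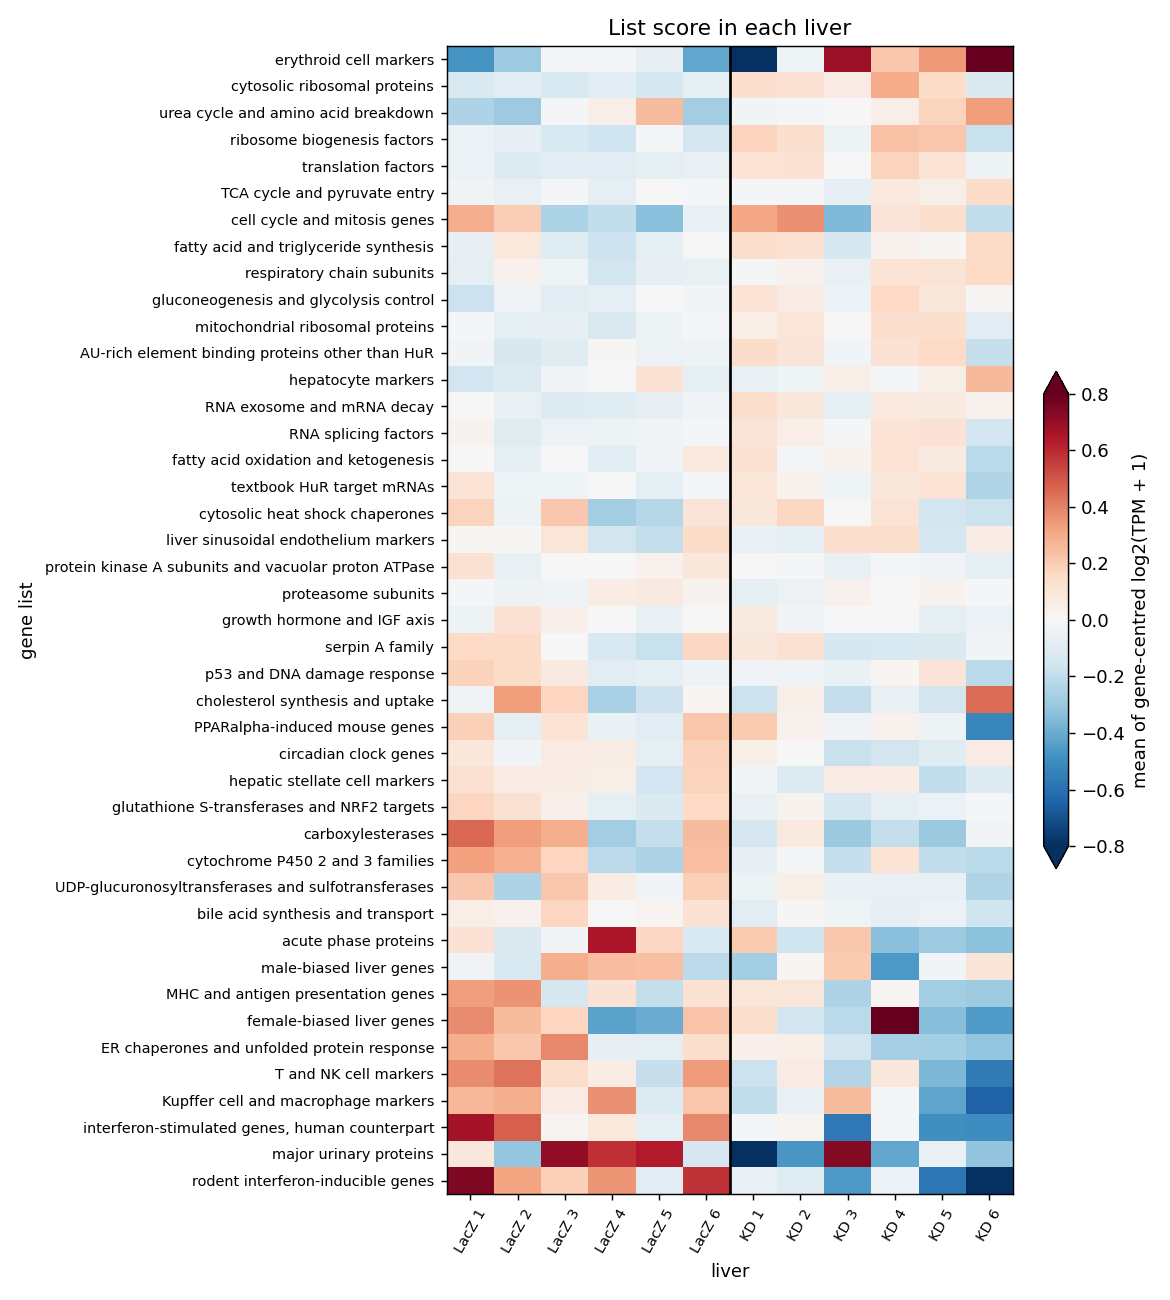
Score of each gene list (y axis) in each liver (x axis), as the mean of gene-centred log2(TPM + 1), with colours limited to −0.8 and 0.8. The interferon rows are blue in knockdown replicates 3, 5 and 6, and the ribosomal protein score of replicate 6 is −0.11 against 0.07 to 0.30 in the other knockdown livers, although its summed TPM (13098) lies above all controls.

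Genes without a human gene of the same symbol were counted apart. Of the 4682 tested, 24 passed the adjusted threshold (0.513%), 8 raised and 16 lowered, against 110 of the 10408 with a human symbol (1.06%). Most of the 4682 are not protein coding and have low levels (median 3.37 TPM, against 11.7 TPM). Among protein-coding genes alone, 3 rose and 13 fell of 1122 without a human symbol (1.43%), and 47 rose and 62 fell of 10205 with one (1.07%). A different symbol is not the same as lack of an ortholog: Supt5, a transcription elongation factor gene conserved in human under another spelling, is in this class and rose from 35.9 ± 2.25 to 46.3 ± 3.12 TPM (SD, n = 6).

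Ces3a, Slfn4, Gm15163 and Ly6a were the lowered genes of this class with the smallest p, followed by the lncRNA Gm36161 at 0.747 to 1.31 TPM with HuR knockdown and 1.64 to 3.85 TPM with LacZ (log2 fold change −0.78, limma adjusted p = 0.0339). In Gm36161, 64.9% of the 50-base stretches also stand in other genes. Besides Supt5, the raised genes with the smallest p were the lncRNAs Gm26608 and Gm45253, the transporter gene Slc6a21 and the fatty acid hydroxylase gene Cyp4f13. Slc6a21 was at 1.40 to 1.71 TPM (median 1.46) against 0.438 to 0.868 TPM (median 0.639), a low level with groups that did not overlap (log2 fold change 0.61, limma adjusted p = 0.0195). Cyp4f13 rose by little but evenly, from 34.9 ± 0.614 to 41.5 ± 1.79 TPM (SD, n = 6; log2 fold change 0.24, limma adjusted p = 0.0361).

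Of the 134 genes, 125 are protein coding and 6 are lncRNAs. Gm26608, a lncRNA on chromosome 5 from 28019465 to 28071105, was at 5.18 to 10.4 TPM (median 8.52) with HuR knockdown and 3.25 to 4.11 TPM (median 3.61) with LacZ. It rose to 229.9% of control (log2 fold change 0.99, limma adjusted p = 0.00313). Its groups did not overlap, and knockdown replicate 3 was the lowest of its group. Gm45253 on chromosome 8 (46372106 to 46385888) had the largest rise of the tested genes past the threshold, 2.48 to 6.60 TPM (median 4.36) against 0.636 to 1.96 TPM (median 1.60), a log2 fold change of 1.13 (limma adjusted p = 0.0232). Zfas1, a host gene of small nucleolar RNAs, rose from 14.9 ± 1.49 to 22.1 ± 3.50 TPM (SD, n = 6; limma adjusted p = 0.0391). The lncRNA A430018G15Rik fell from 5.30 ± 0.931 to 3.08 ± 0.576 TPM (SD, n = 6). Mir1933, a miRNA gene inside the span of Ugp2, was at 18.4 to 51.2 TPM against 9.65 to 19.3 TPM with overlapping groups (log2 fold change 1.05, limma adjusted p = 0.0391), and total RNA reads there do not measure the mature miRNA. The overlap rests on the shallow LacZ replicate 2, at 19.3 TPM, where a read on so short a gene weighs much. The other controls were at 9.65 to 16.9 TPM.

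Without LacZ replicate 2, further genes came past the threshold. Rmnd5a, a subunit of the CTLH ubiquitin ligase, was at 53.8 to 66.5 TPM with HuR knockdown and 60.5 to 84.1 TPM with LacZ (log2 fold change −0.38 and adjusted p = 0.0528 with all livers, −0.44 and 0.00771 without replicate 2, from limma). Parva, Lrrc14b, Msi2 and Atp13a3 were next by p among lowered genes, with adjusted p of 0.00876 to 0.0186 without replicate 2. Msi2 encodes another RNA-binding protein and was at 6.10 to 7.09 TPM against 6.52 to 9.49 TPM (log2 fold change −0.42 without replicate 2). The 5 raised genes with the smallest p were Gm26725, D830035M03Rik, Vars2, Dnph1 and Uck2. D830035M03Rik had no read in LacZ replicate 2, and its log2 fold change went from 0.63 to 0.45 without that liver.

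Textbook HuR target mRNAs and proteins that share its AU-rich sites were also listed. Of 22 tested target mRNAs 2 were higher (background 9.09%) and 1 lower (background 6.94%) at the unadjusted threshold, 0 passed the adjusted one and the median was 0.02, against 0.03 for all tested genes. Without both outlying livers 5 were higher (background 15.4%) and 1 lower, and Dicer1, the miRNA-processing enzyme, passed the adjusted threshold (log2 fold change 0.24, limma adjusted p = 0.0487). Ccnd1, cyclin D1, was at 4.48 to 7.75 TPM (median 5.33) with HuR knockdown and 6.28 to 9.84 TPM (median 8.06) with LacZ (log2 fold change −0.43, limma adjusted p = 0.143). Its groups overlapped. Of 22 other AU-rich element binding proteins 3 were higher and 0 lower, with a median of 0.09. The smallest p was that of Ybx3 (log2 fold change 0.27, adjusted p = 0.129, and 0.0319 without both outlying livers, from limma).

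The AU-rich pentamer ATTTA was counted in the longest 3′ UTR of 11184 tested protein-coding genes (GENCODE M21). It was present in 69.8% of all of them, in 46.8% of the 47 raised and in 78.7% of the 75 lowered genes that have such a UTR. Without both outlying livers it was present in 55.6% of 374 raised and 75.1% of 277 lowered genes. The 10 cytosolic ribosomal protein genes that rose were not set apart in these counts. The UTRs of raised genes were also shorter, with a median of 568 bases against 1664 in lowered and 1149 in all genes, and the pentamer count moves with UTR length, so that their parts cannot be told apart. Genes with 0 pentamers were higher at the unadjusted threshold in 13.0% and lower in 7.84%. Those with 11 or more were higher in 1.94% and lower in 10.1%. The median log2 fold changes with 0 and with 11 or more pentamers were 0.04 and −0.02, a small span. Without both outlying livers these medians were 0.05 and 0.001. Within a length class, the share higher with 0 and with 3 or more pentamers was 14.1% and 8.24% in UTRs of 500 to 1000 bases, 10.7% and 6.16% at 1000 to 2000 bases, and 17.2% and 5.79% above that. Below 500 bases the shares were 12.9% and 14.5%, the latter in 69 genes. The share lower differed less in the longer classes. It was 8.59% and 10.5% at 500 to 1000 bases, 8.40% and 9.73% at 1000 to 2000 bases, and 6.03% and 8.78% above that.

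**Figure D5:**
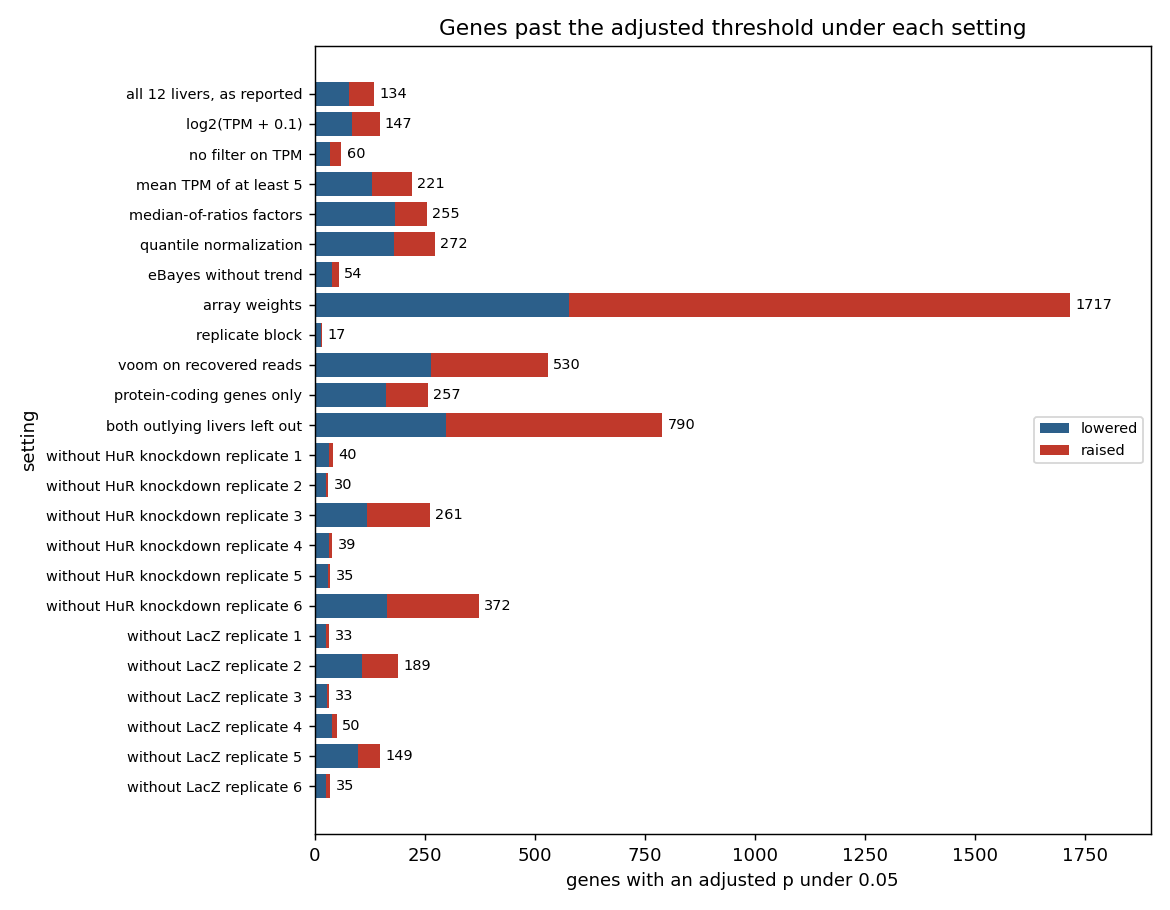
Number of genes past the adjusted threshold (x axis) under each setting (y axis), split into lowered (blue) and raised (red). The count is 134 with all 12 livers, 17 with replicate number as a block, 790 without both outlying livers and 1717 with array weights.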

How the data were processed

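Total RNA from whole liver was sequenced with paired ends (TruSeq Stranded Total RNA). Per the labels and the study's methods, the authors trimmed the reads, aligned them with HISAT2 to mouse GENCODE M23 (GRCm38) and counted them per gene with featureCounts; the strand setting of the counting is not given in the sources used here. The deposited values are TPM, computed by the authors per liver. Reads behind each value were recovered from the TPM steps with exon lengths of GENCODE M21. Depth was 1424346 to 44675243 reads, so 1 read on a gene of 1 kb was worth 1.70 TPM in LacZ replicate 2 and at most 0.188 TPM elsewhere.

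Genes with a mean of at least 1 TPM over 12 livers were tested on log2(TPM + 1) with limma 3.58.1 (R 4.3.3; empirical Bayes with trend), 6 HuR knockdown against 6 LacZ livers, with Benjamini-Hochberg adjustment over all tested genes; edgeR and DESeq2 were not run. Fold changes are on the log2(TPM + 1) scale, which understates changes of low genes. Nothing in the labels ties livers to separate batches, and the mice are the replicates. Alternatives were another pseudocount, other filters, scalings and variance models, voom on recovered reads, and each liver left out. Named genes were Elavl1, the 10 smallest p without overlap and the largest folds in each direction, the leading genes without a human symbol and non-coding genes, those past the threshold only without LacZ replicate 2, and from lists the members with the smallest p; others were chosen after their values were seen. A gene that this rule names is not reported here. The genes, lists and tests were chosen with earlier results of these data known. Overlapping genes, antisense partners and near-identical copies are uncertain. The script was tested on simulated data. Python 3.11.15, pandas 2.3.3, scipy 1.17.1 and matplotlib 3.10.9 were used.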

Additional observations from a re-analysis of the deposited data

Results flagged for a closer look

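In 10 of 134 groups of 6 livers that were examined, 1 liver lay further from the rest than Dixon's 95% critical value allows, which chance alone gives in about 1 in 20 groups. Reads on genes were fewest in HuR knockdown replicate 6 (12962463) and in LacZ replicate 2 (1424346). Cct5 was low in LacZ replicate 4 (110.2 TPM), Suclg2 in knockdown replicate 6 (52.98 TPM) and Calu in LacZ replicate 2 (42.9 TPM), while C2cd2 was high in knockdown replicate 3 (34.1 TPM). Among list scores, the textbook HuR targets were high in LacZ replicate 1 (0.11) and acute phase proteins in LacZ replicate 4 (0.66). In knockdown replicate 6, PPARα-induced genes scored low (−0.52) and hepatocyte markers high (0.26).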

How the results depend on the processing

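Elavl1 passed the adjusted threshold under all 23 alternatives run. The number of genes past that threshold, 134, with those lacking a human gene of the same symbol (24) beside it in parentheses, was 60 (11) with no filter on TPM, 221 (41) at a mean of at least 5 TPM, 257 (43) among protein-coding genes, 255 (59) with median-of-ratios factors, 272 (71) after quantile normalization, 54 (11) without the trend, 1717 (331) with array weights, 530 (112) with voom on recovered reads and 790 (182) without both outlying livers, the last chosen after seeing the data. Leaving out 1 liver gave 30 to 372 (5 to 83). The count at the unadjusted threshold, 2418, was 4205 with array weights. With replicate number as a block, 17 genes (4) passed. Same-numbered livers correlated by −0.142 to 0.206 in their deviations from the group means. The best-matching control had the same number for knockdown replicates 1 and 5, and another number for replicates 2, 3, 4 and 6. These correlations include both outlying livers, so they cannot decide whether the numbers pair the livers. The log2 fold changes of 2 cell type markers that did not pass the threshold changed sign: Spp1 (−0.062) was 0.060 with array weights, 0.024 with voom and 0.057 without both livers, and Cd79b (0.07) was −0.031, −0.016 and −0.060. Leaving out 1 liver gave −0.20 to 5.2e-05 for Spp1 and −0.059 to 0.15 for Cd79b. Over 120 named genes, 243 of 2735 values lost the threshold and 224 gained it. The median of 11 of 46 lists changed sign under some alternative, among them PPARα-induced genes, cholesterol genes, sinusoidal endothelium markers and the protein kinase A and vacuolar ATPase list. The cause was not tested. In LacZ replicate 2, 1368 tested genes had no read, which limits what it shows of genes at a few TPM.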

Other observations

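Some single genes outside the lists are given, all chosen after their values were seen and none standing for a pathway. Impdh2, Atic and Gart, enzymes of purine synthesis, rose by 0.45, 0.29 and 0.29 on the log2 scale (limma adjusted p of 0.0391, 0.0433 and 0.0493). Gart had an adjusted p of 0.0544 without LacZ replicate 2. Impdh2 shares 39.3% of its 50-base stretches with its pseudogene Impdh2-ps. Gldc, which cleaves glycine in mitochondria, had means of 144 TPM with HuR knockdown and 94.9 TPM with LacZ (log2 fold change 0.60, limma adjusted p = 0.0433, and 0.0552 without LacZ replicate 2).

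Among genes that fell, Nr1i3, the xenobiotic receptor CAR, had means of 152 and 238 TPM (limma adjusted p = 0.0454, and 0.0588 without LacZ replicate 2). Hfe, which acts in hepatic iron sensing, had means of 27.8 and 44.5 TPM (limma adjusted p = 0.00425). Slc38a4, an amino acid transporter gene, had the highest level of the lowered genes, with means of 738 and 1057 TPM (limma adjusted p = 0.00928).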
